A study of Ovis aries with 20 samples.

Results

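The interventricular septum was compared with the left ventricle (LV) of the same hearts in 5 newborn lambs of control ewes. The comparison rests on 10 of the study's 20 arrays, those labelled control, with 5 from LV and 5 from septum, and an LV and a septum array were taken as 1 heart where their titles carry the same replicate number. All lambs were singletons. The control ewes were infused with vehicle from about day 115 of gestation to birth, and the lambs, whose titles mark them as telemetry newborns, were killed between 10 and 480 min after birth. The other 10 arrays, 5 LV and 5 septum, come from lambs whose ewes received cortisol at 1 mg/kg/day over the same period, and are used here only to set their regional difference beside that of the control lambs. The time after birth of each lamb is not given in the sources used here, but LV and septum of 1 lamb share it. Each array is a 1-colour (Cy3) sheep expression array of 15008 probes, and a value below is log2 of the spot's processed signal minus the array's 75th percentile, so that 0 is the level exceeded by 1 in 4 probes of that array.

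The septum is the muscular wall between the ventricles, facing both cavities, while the free wall of the LV faces one cavity and is covered on its outer side by epicardium, a mesothelial sheet with connective tissue and fat beneath it. In both walls working muscle cells take up most of the volume, and fibroblasts, endothelium, smooth muscle and resident immune cells make up much of the cell number. Fibroblasts lay down fibrillar collagens between the muscle cells, and muscle cells and capillaries each sit on a basement membrane built on type IV collagen. HAND1, a basic helix-loop-helix transcription factor, marks the left ventricular side of the developing heart in other mammals. Arrays of whole tissue measure RNA per sample, so fewer cells of a type and less RNA per cell cannot be told apart.

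Of the 6 genes fixed as defining markers of cardiac muscle cells, MYH7, the beta myosin heavy chain, was the single gene with a named probe. It lay between 3.02 and 4.56 on the LV arrays and between 3.08 and 4.06 on the septum arrays, well above the 75th percentile on all 10. None of the 3 atrial markers fixed for the check (MYL7, MYL4 and NPPA) has a named probe, so an atrial admixture could not be examined by them. Of red cell markers, the beta globin HBB ranged from 3.59 to 6.95 in LV and from 3.66 to 6.89 in septum, with lamb 2 the highest in both regions.

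The septum arrays were brighter than the LV arrays of the same lambs. The log2 of the 75th percentile was 6.69 to 8.05 on LV and 8.05 to 8.78 on septum arrays, and was higher in septum in 5 of 5 lambs by 0.83 ± 0.54 (SD, n = 5 lambs; exact two-sided sign-flip test, p = 0.0625, the smallest that 5 pairs allow). The difference was 1.36, 1.17 and 1.14 in lambs 1, 2 and 3, and 0.27 and 0.21 in lambs 4 and 5. Spots well above background made up 60.5% to 70.9% of an LV array and 67.1% to 72.1% of a septum array (difference 4.78 ± 5.31 percentage points, higher in 4 of 5 lambs; exact two-sided sign-flip test, p = 0.1875). In lambs 1, 2 and 4 the LV arrays were on 1 slide and the septum arrays on another, so that slide and region cannot be told apart in them, whereas in lambs 3 and 5 all 4 arrays were on 1 slide.

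**Figure D1:**
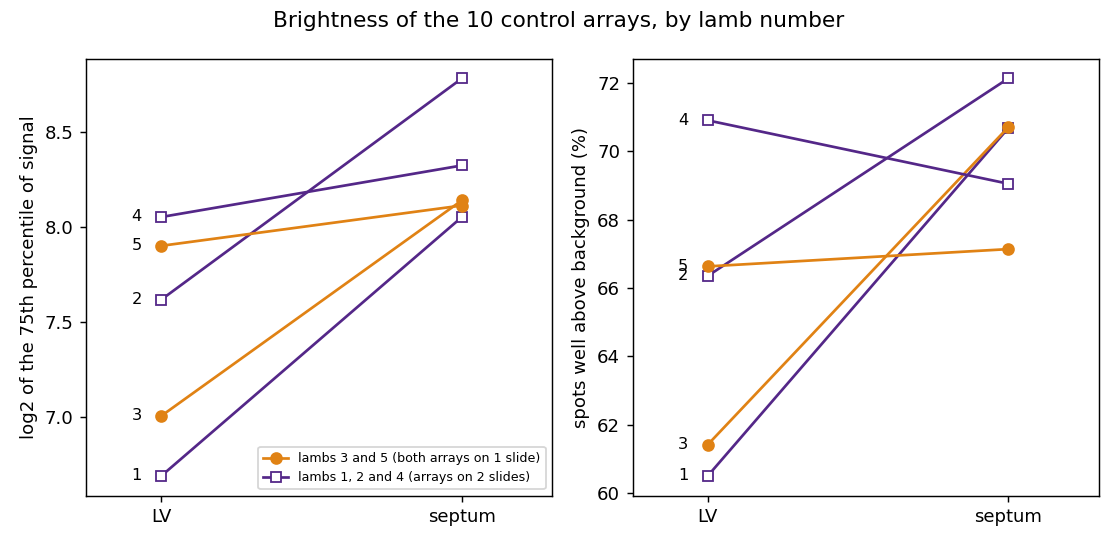
Brightness of the 10 control arrays: the log2 of the 75th percentile of spot signal (left) and the percent of spots well above background (right), LV and septum of a lamb joined by a line and numbered at the LV end. Filled circles are lambs 3 and 5, whose arrays share a slide, and open squares are lambs 1, 2 and 4. The left panel rises in all 5 lambs, least in lambs 4 and 5, and the right panel falls in lamb 4.

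Of the measured probes 18.9% differed between the regions, more of them lower in septum than higher, and most by less than 2-fold. Of 15008 probes, 10333 were well above background on 5 or more of the 10 arrays and were tested, and 1951 (18.9%) passed a paired limma test with the lamb as a block at a Benjamini-Hochberg adjusted p under 0.05. Lower in septum were 1282 probes (12.4%) and higher 669 (6.47%). The median difference of all tested probes was 0.01. Among probes that passed, the median size was 0.50 on the log2 scale, 111 were at least 2-fold lower and 23 at least 2-fold higher. All 5 lambs moved the same way in 1893 of the 1951, against 3496 (33.8%) of all probes tested, and the LV and septum ranges did not overlap for 532 (5.15%) of all probes tested. With the probes divided by signal into 4 equal groups, 17.1% of the dimmest passed, then 22.1%, 20.8% and 15.5% of the brightest. Normalization by cyclic loess moved the balance, to 1108 lower and 883 higher.

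Most of these probes carry no gene name in the files. Of 701 named genes tested, each by its brightest probe, 96 were lower in septum and 45 higher, and the others did not pass. The median of the named genes was −0.04. The lower genes had a median difference of −0.54 and the higher genes of 0.42, and 22 of the lower and 4 of the higher had LV and septum ranges that did not overlap. The numbers of calls depend on how slide, brightness and lambs enter. With slide as a further term 1 probe passed, the unnamed probe A_70_P035166 described below, with the array's 75th percentile as a covariate none did (1510 at an unadjusted p under 0.05), and after normexp background correction alone none did (224 at an unadjusted p under 0.05). The slide term leaves lambs 3 and 5 alone to set the regional difference. Leaving out a lamb left 898 calls without lamb 1, 850 without lamb 2, 1181 without lamb 3, 1117 without lamb 4 and 1190 without lamb 5.

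**Figure D2:**
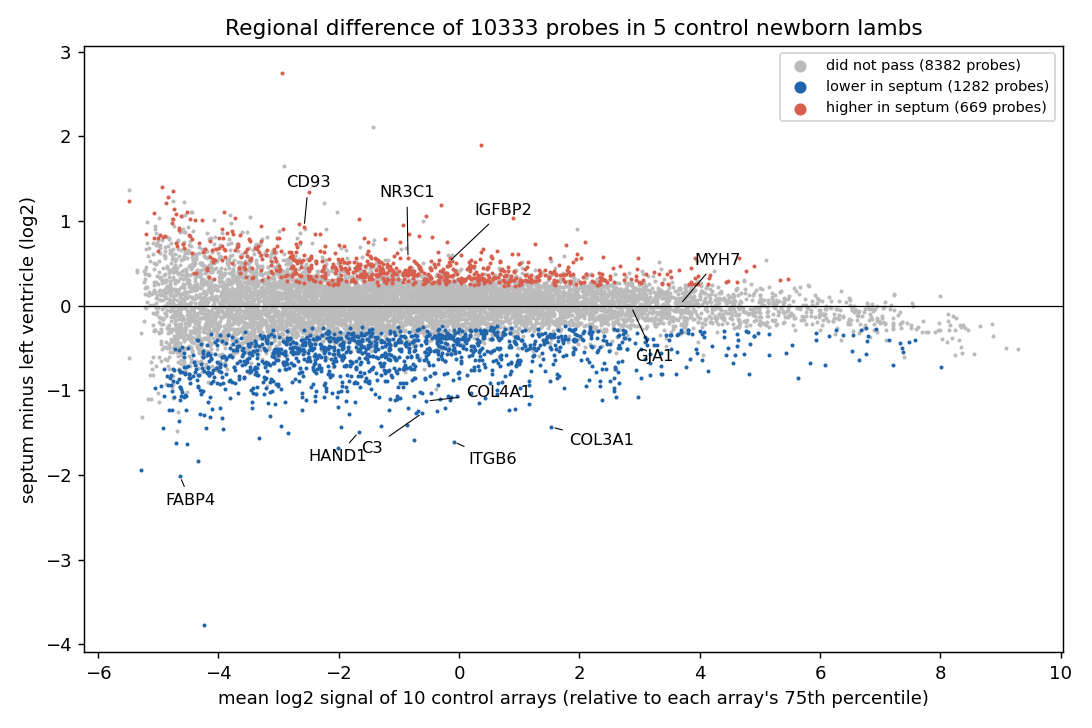
Septum minus LV difference (log2, mean of 5 control lambs) of each of the 10333 tested probes against its mean log2 signal over the 10 control arrays. Blue points passed and were lower in septum (1282), red points passed and were higher (669), and grey points did not pass. At least 2-fold lower were 111 of the probes that passed and at least 2-fold higher 23.

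HAND1 was 2.82-fold lower in septum, with no overlap between the regions. Its LV values were −0.81, −0.95, −0.21, −1.51 and −1.14 in lambs 1 to 5, and its septum values −2.10, −2.11, −1.83, −3.18 and −2.88 in the same order. The highest septum value was below the lowest LV value. The difference was −1.50 (SE 0.108, n = 5 lambs; limma, adjusted p = 0.00249), −1.68 in the same-slide lambs 3 and 5 and −1.37 in the others. A second HAND1 probe, which shares 40 bases with the first, gave −1.50 as well (adjusted p = 0.009). The opening of the stretch shared by both probes is shown because it is the piece of transcript that the HAND1 result rests on.

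HAND1 shared stretch: atgaaggctttcctcctgccctgggcccag

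Of 40 genes listed as chamber and cardiac transcription factors, 3 could be tested, and HAND1 was the 1 that passed. Of all probes 18.9% passed. NR2F2, an orphan nuclear receptor that marks atrial muscle and venous endothelium, stood at 0.38 (SE 0.129, adjusted p = 0.081) and CITED2, a transcriptional co-regulator, at 0.15 (SE 0.154). HAND2, TBX5, IRX4, NKX2-5 and GATA4 have no named probe and were not analysed here. Over the 10 control arrays the named genes most like HAND1 in level were PTPA (r = 0.94), a gene the files call LOC780442 (r = 0.93) and GNLY (r = 0.93), correlations that include the regional difference itself and are given as a description.

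ITGB6, the beta subunit that pairs with ITGAV to form the epithelial integrin that releases active TGF-beta, was 3.05-fold lower in septum. It stood at 1.06, 0.48, 0.70, 0.33 and 1.00 on the LV arrays of lambs 1 to 5 and at −0.41, −0.92, −0.80, −1.62 and −0.71 on the septum arrays. Every LV value was above the array's 75th percentile and every septum value below it. The difference was −1.61 (SE 0.098, adjusted p = 0.00249), with −1.60 in the same-slide lambs and −1.61 in the others, and a second probe gave −1.42. ITGAV, its partner, was higher in septum by 0.46 (SE 0.106, adjusted p = 0.031), from LV values of −2.59 to −1.75 to septum values of −2.28 to −1.47, in ranges that overlap.

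ITGA4, a subunit of the receptor for VCAM1 and fibronectin, was 2.45-fold lower in septum, at a low level. Across the alternative settings its difference ran from −1.41 to −0.19, and its call was lost after normexp correction then cyclic loess. Its LV values of −3.03, −3.60, −3.95, −3.78 and −3.58 lay above all 5 septum values of −4.91, −5.01, −4.77, −4.67 and −5.06 (difference −1.29, SE 0.165, adjusted p = 0.006), and 1 septum spot was not well above background. Of 14 tested genes of integrins and adhesion, 2 were lower in septum, 1 was higher and 11 did not pass, near the 18.9% of all probes that passed, with a median of 0.19 against 0.01 for all probes. ITGB1, the common beta subunit of muscle and fibroblasts, did not pass (−0.05, SE 0.099). The named genes most like ITGB6 over the 10 arrays were COL4A1 (r = 0.96), IL13RA1 (r = 0.96) and ATP5PD (r = 0.95).

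Of the 5 fibrillar collagen genes tested on the matrix list, COL3A1, COL1A2 and COL1A1 were lower in septum, and COL5A2 (−0.0039, adjusted p = 0.983) and COL2A1 (−0.14, adjusted p = 0.522) did not pass. Of all probes 12.4% passed as lower. COL3A1, the type III chain, stood at 2.18, 1.94, 2.23, 2.84 and 2.07 on the LV arrays and at 0.76, 0.15, 0.68, 1.49 and 1.02 on the septum arrays. The ranges did not overlap and the difference was −1.43 (SE 0.113, 2.70-fold; adjusted p = 0.003). Its 3 other tested probes were lower too, by −0.60, −1.10 and −1.21, each past the threshold. COL1A2, the alpha-2 chain of type I collagen, went from −0.31, −0.68, −0.82, −0.40 and −0.53 in LV to −1.80, −2.16, −2.21, −1.49 and −1.25 in septum, again without overlap (difference −1.24, SE 0.129, adjusted p = 0.004).

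COL1A1, the alpha-1 chain, moved less. Its LV values were −1.30, −1.69, −2.28, −1.71 and −1.80 and its septum values −2.31, −2.54, −3.06, −2.15 and −1.82, ranges that overlap. The difference of −0.62 (SE 0.150, adjusted p = 0.034) was lost without lamb 1, 2, 3 or 4 (adjusted p 0.070 to 0.101), and a second probe did not pass (−0.34, adjusted p = 0.284). COL16A1, a minor collagen associated with fibrils and basement membranes, was 3.11-fold lower at a low level, from LV values of −4.15 to −3.21 to septum values of −5.88 to −4.85, with 2 septum spots not well above background, and by −1.05 in the same-slide lambs against −2.02 in the others. Its difference ran from −2.02 to −0.22 across the alternative settings, and its call was lost after normexp correction then cyclic loess.

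The paired chains of basement membrane collagen, COL4A1 and COL4A2, were both lower in septum and by nearly the same amount. COL4A1 had LV values of 0.35, 0.10, 0.15, −0.34 and −0.16 and septum values of −0.78, −1.01, −1.22, −1.49 and −1.04 (difference −1.13, SE 0.085, adjusted p = 0.003). COL4A2 ranged from −1.12 to −0.31 in LV, with a median of −0.84, and from −2.17 to −1.47 in septum, with a median of −1.88 (difference −1.08, SE 0.092, adjusted p = 0.003). Neither gene's regions overlapped, and the same-slide lambs gave −1.12 and −1.18. NTN4, a laminin-related netrin of basement membranes, was 2.38-fold lower, from LV values of 0.14 to 0.50 to septum values of −1.35 to −0.43, and its second probe gave −1.09. NTN4 was also the named gene most like COL3A1 over the 10 arrays (r = 0.97), followed by COL1A2 (r = 0.93).

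The probes that stand for COL3A1, COL4A1 and COL1A2 lie in the triple-helical coding part, where glycine recurs at regular steps along the chain. This repeat makes related collagen genes similar in sequence. They are shown whole, because this repeat is what each signal is read through, with the glycine codons of the repeat (GGN) in capitals. There are 6 in the COL3A1 probe, 7 in the COL4A1 probe and 6 in the COL1A2 probe. Other collagen probes were not examined for the repeat.

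COL3A1 probe: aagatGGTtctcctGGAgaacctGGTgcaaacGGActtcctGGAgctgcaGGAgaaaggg

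COL4A1 probe: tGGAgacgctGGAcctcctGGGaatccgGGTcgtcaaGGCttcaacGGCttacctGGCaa

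COL1A2 probe: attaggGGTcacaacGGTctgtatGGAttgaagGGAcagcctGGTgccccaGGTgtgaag

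Other matrix genes went both ways. COL6A1, a microfibrillar collagen chain, was higher in septum by 0.46 (SE 0.087, adjusted p = 0.016; adjusted p = 0.058 without lamb 2), from LV values of −1.32, −2.89, −2.63, −2.05 and −2.15 to septum values of −1.09, −2.29, −1.98, −1.71 and −1.65, while its second probe gave −0.05. TIMP3, a matrix-bound inhibitor of metalloproteinases, was lower by −0.63 (adjusted p = 0.010). Decorin (DCN, −0.06), MMP2 (−0.19) and vimentin (VIM, 0.06) did not pass. In all, of 18 tested genes of collagen and extracellular matrix, 6 were lower, 2 higher and 10 did not pass, with a median of −0.14 against 0.01 for all probes. The 2 higher were COL6A1 and the cathepsin CTSB. Of all probes 12.4% passed as lower and 6.47% as higher.

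Of the 7 tested fibroblast markers, 3 were lower (the collagens COL3A1, COL1A2 and COL1A1) and 4 did not pass, where 12.4% of all probes passed as lower. Their summed level was 100 to 153 times the 75th percentile in LV and 96.3 to 138 times in septum, ranges that overlap. S100A4 differed widely between lambs, at −2.13, −6.66, −6.03, −1.77 and −2.13 in LV and −2.21, −2.82, −2.13, −1.52 and −1.77 in septum, and did not pass (1.65, SE 0.702, adjusted p = 0.141).

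**Figure D3:**
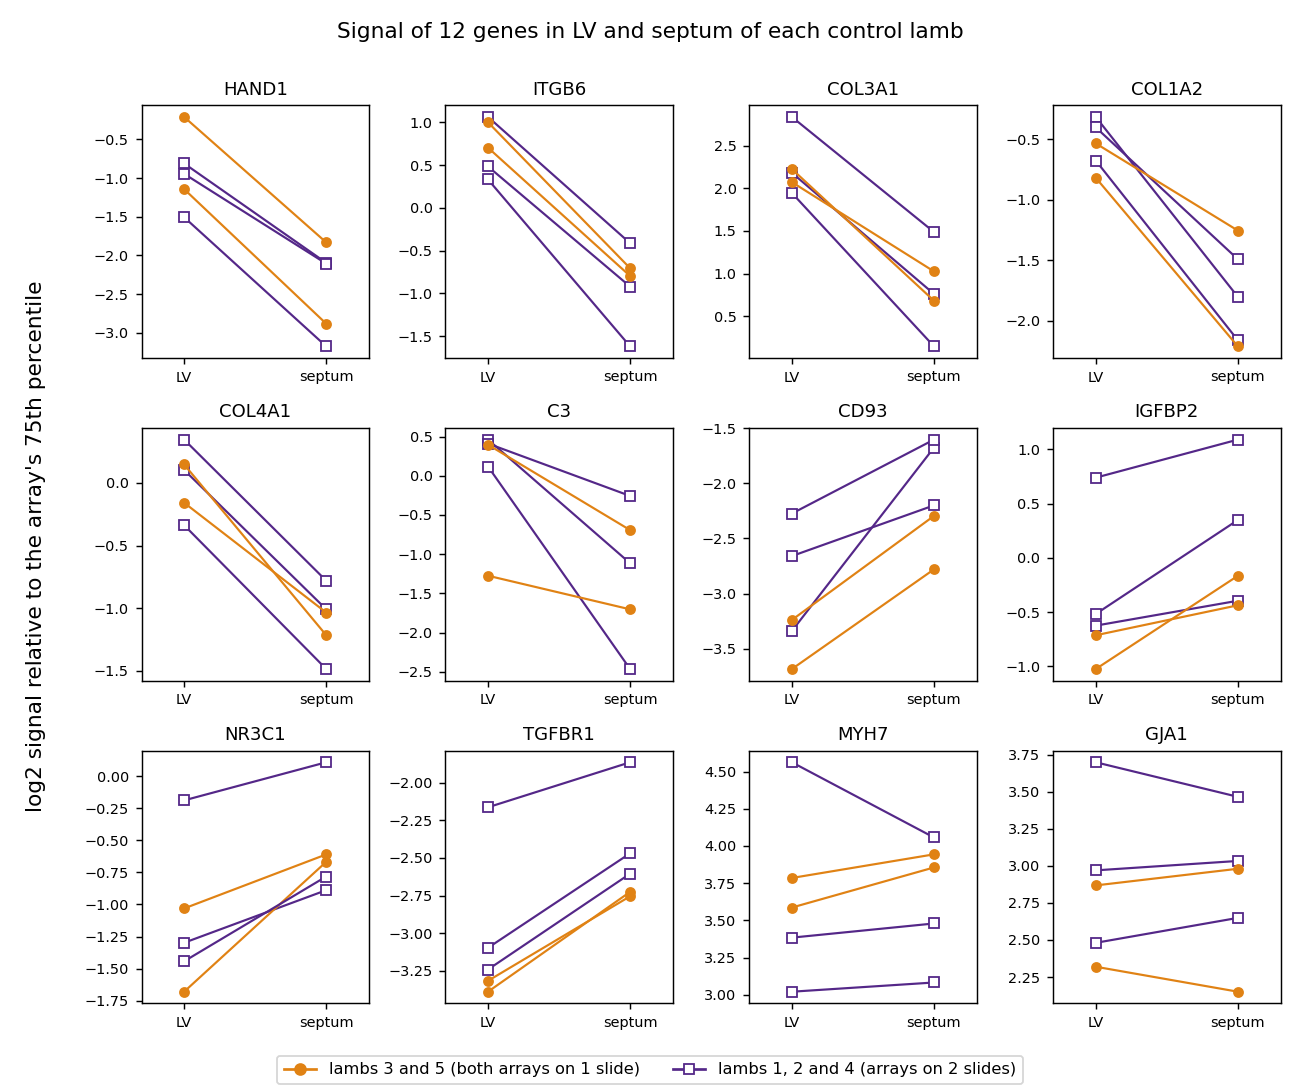
Log2 signal of 12 genes relative to each array's 75th percentile, in LV and septum of the 5 control lambs, each lamb joined by a line. Filled circles are lambs 3 and 5, with both arrays on 1 slide, and open squares are lambs 1, 2 and 4. The lines of HAND1, ITGB6, COL3A1, COL1A2, COL4A1 and C3 fall in all 5 lambs, those of CD93, IGFBP2, NR3C1 and TGFBR1 rise in all 5, and those of MYH7 and GJA1 go both ways.

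Of the fibroblast growth factors tested FGF7 and FGF2 were lower in septum, and FGF10 (−0.30), FGF18 (−0.09) and FGF1 (−0.0024) did not pass. FGF7, a mesenchymal factor that acts on epithelia, stood at 2.13, 1.75, 1.31, 0.77 and 1.55 in LV and at 0.82, 0.31, 0.53, 0.34 and 0.66 in septum (difference −0.97, SE 0.154, adjusted p = 0.010). Its other probes disagree, as 2 of them, at a lower level, gave −1.11 and −1.06 and passed, while the brightest of the 3 gave 0.05 and did not. FGF2, basic fibroblast growth factor, was lower by −0.43 (SE 0.083, adjusted p = 0.019), a call lost without lamb 1, 2 or 3 (adjusted p 0.052 to 0.063) and a difference of 0.00 in the deposited value table. KDR, the main signalling receptor for VEGF on endothelium, was lower by −0.76 (SE 0.115, adjusted p = 0.009), from LV values of 1.17, 0.78, 0.36, 0.26 and 0.53 to septum values of 0.48, 0.05, −0.88, −0.36 and 0.01. Of its 3 other probes 1 gave −0.73 and the others −0.16 and −0.07. VEGFA itself did not pass (−0.34, adjusted p = 0.133) although its second probe did (−0.47, adjusted p = 0.041), and ANGPT2, an antagonist of the TEK receptor, was higher by 0.45 (adjusted p = 0.016), with 1 LV spot well above background. ANGPT2 thus entered the test mainly through its septum arrays, the group where it was higher. Of 20 tested genes of Wnt, Notch, FGF and VEGF signalling, 3 were lower, 2 higher and 15 did not pass (median −0.10). The shares over all probes were 12.4% lower and 6.47% higher.

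Of 22 tested genes of activin, BMP and TGF-beta signalling 3 ligand genes were lower in septum, 2 genes of signal reception were higher and 17 did not pass (median 0.06), near the 18.9% of all probes that passed. TGFB1 was lower by −0.49 (SE 0.069, adjusted p = 0.007), from −1.10, −0.34, −1.13, −0.90 and −1.14 in LV to −1.50, −0.78, −1.73, −1.47 and −1.59 in septum. TGFB2 was lower by −0.53 (adjusted p = 0.024) and INHA, the inhibin alpha subunit, by −0.55 (adjusted p = 0.010). TGFBR1, the type I receptor that phosphorylates SMAD2, was higher by 0.56 (SE 0.080, adjusted p = 0.008), from −2.16, −3.24, −3.32, −3.10 and −3.39 to −1.86, −2.60, −2.75, −2.47 and −2.73. A second, dimmer TGFBR1 probe gave 0.18 and did not pass. SMAD5, a signal transducer of bone morphogenetic proteins, was higher by 0.31 (adjusted p = 0.041). The ligands BMP4 (0.76, adjusted p = 0.087), TGFB3 (0.39), GDF9 (0.18), BMP7 (0.09), BMP6 (0.07) and INHBA (−0.10) did not pass.

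The insulin-like growth factor axis divided. IGFBP2, a secreted binding protein, was higher in septum, from −0.62, 0.74, −0.71, −0.52 and −1.03 in LV to −0.40, 1.09, −0.44, 0.35 and −0.17 in septum. The difference of 0.52 (SE 0.126, adjusted p = 0.035) was higher in 5 of 5 lambs but lost its call without any 1 of them (adjusted p 0.055 to 0.088). A second IGFBP2 probe, offset by 1 base so that it shares 59 bases with the first, gave 1.07 (adjusted p = 0.004). The start of the shared stretch is shown because the size of the IGFBP2 result differs between probes that are almost the same sequence.

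IGFBP2 shared stretch: tttatttttgaacccctgtgtctctttttg

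IGF2R, which clears IGF2 and carries lysosomal enzymes, was higher by 0.49 (SE 0.091, adjusted p = 0.016; 0.056 without lamb 2), with 2 further probes at 0.57 and 0.37 that missed the threshold. IGFBP5 was lower by −0.45 (adjusted p = 0.010), IGFBP3 by −0.42 (adjusted p = 0.015; over 0.05 without lamb 1 or 2) and the receptor IGF1R by −0.42 (adjusted p = 0.046). IGF2, the main fetal ligand, did not pass (−0.09, SE 0.079), and neither did IGF1 (−0.42, SE 0.205). In all 3 of 13 tested genes were lower, 2 higher and 8 did not pass (median −0.15). The shares over all probes were 12.4% lower and 6.47% higher.

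Single receptors for vasoactive and steroid hormones passed, 1 of 3 tested genes of angiotensin and adrenergic signalling and 1 of 7 steroid, thyroid and nuclear receptors, against 18.9% of all probes. AGTR2, the type 2 angiotensin receptor, ranged from −4.50 to −1.56 in LV and from −5.17 to −2.63 in septum and was lower by −0.62 within lambs (SE 0.118, adjusted p = 0.017; 0.057 without lamb 2), with −0.77 at its second probe, whereas AGTR1 did not pass (0.24, adjusted p = 0.086). EDNRA, the endothelin receptor of muscle, was lower by −0.51 (adjusted p = 0.017; 0.052 without lamb 1 and 0.053 without lamb 2) and by −0.63 at its second probe. ESR1, oestrogen receptor alpha, was lower by −0.48 (adjusted p = 0.033), a call lost without lamb 1, 2, 4 or 5. The adrenergic receptor ADRB1 (−0.09), the endothelin receptor EDNRB (−0.16) and the progesterone receptor PGR (0.70, adjusted p = 0.080) did not pass.

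NR3C1, the glucocorticoid receptor, was 1.47-fold higher in septum. Its values were −0.19, −1.30, −1.68, −1.44 and −1.03 in LV and 0.11, −0.89, −0.67, −0.78 and −0.61 in septum, higher in 5 of 5 lambs although the ranges overlap. The difference was 0.56 (SE 0.116, adjusted p = 0.022), 0.72 in the same-slide lambs and 0.46 in the others, and missed the threshold without lamb 2 (0.055) or lamb 4 (0.066). NR3C2, the mineralocorticoid receptor, stood at 2.85, 1.90, 1.85, 1.16 and 2.29 in LV and 3.02, 2.13, 2.21, 2.19 and 2.35 in septum, a difference of 0.37 that did not pass (SE 0.146, adjusted p = 0.118), while its second probe gave 0.59 and did (adjusted p = 0.026). HSD11B2 (−0.48, SE 0.243) and HSD11B1 (0.08, SE 0.096), which inactivate and regenerate cortisol, did not pass. Of 6 tested genes of corticosteroid action NR3C1 was the 1 that passed, where 18.9% of all probes did.

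Among genes of fuel use, CPT1A, which admits long-chain fatty acids to mitochondria and is the isoform of liver and fetal heart, was 2.33-fold lower in septum. It stood at 2.41, 0.53, 1.44, 2.96 and 0.35 in LV and at 1.42, −0.66, 0.53, 0.91 and −0.61 in septum. The ranges overlap, but all 5 lambs fell (difference −1.22, SE 0.176, adjusted p = 0.008), and a second probe gave −1.24. The adult muscle isoform CPT1B did not pass (0.06, SE 0.090). FABP4, the fatty acid carrier of fat cells and capillary endothelium, was lower by −2.02 (SE 0.309, adjusted p = 0.009), from −2.70, −5.81, −2.71, −1.71 and −5.23 to −6.15, −7.85, −4.20, −3.67 and −6.38, ranges that overlap, with 3 LV and 2 septum spots well above background. PLIN5, a lipid droplet coat protein of oxidative muscle, was higher by 0.41 (adjusted p = 0.015).

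PFKM, the muscle phosphofructokinase, was higher by 0.34 (SE 0.065, adjusted p = 0.018; 0.062 without lamb 1 and 0.056 without lamb 2), and SLC16A1, a lactate transporter, was lower by −0.54 (adjusted p = 0.017; 0.056 without lamb 1 or 2). GLUD1, glutamate dehydrogenase, was lower by −0.82 (SE 0.090, adjusted p = 0.005) and ACLY, which makes cytosolic acetyl-CoA, by −0.52 (adjusted p = 0.008). ATP5PD, a stalk subunit of ATP synthase, was lower by −0.75 (SE 0.083, adjusted p = 0.005) with LV values of 2.49 to 3.00 above all septum values of 1.85 to 2.25. It was 1 of 2 genes lower, with SOD2, among 17 of the citric acid cycle and oxidative phosphorylation, where VDAC1 was higher (0.26, adjusted p = 0.047), a call lost without any 1 of the lambs (0.084 to 0.135), with −0.02 after normexp correction and in the value table. The counts were 2 lower and 1 higher of 11 for fatty acid transport and oxidation (median 0.01) and 1 lower and 1 higher of 18 for glycolysis and glycogen (median −0.08). Beside the counts of these 3 lists, 12.4% of all probes passed as lower and 6.47% as higher.

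Among immune genes C3, TYROBP, FCER1G and IL13RA1 were lower in septum. C3, the central complement protein, stood at 0.46, 0.41, 0.40, 0.12 and −1.27 in LV and −1.12, −0.26, −0.69, −2.46 and −1.70 in septum. It was lower in 5 of 5 lambs by −1.27 (SE 0.301, adjusted p = 0.033), by −0.76 in the same-slide lambs and −1.61 in the others, and missed the threshold without lamb 1, 2 or 3 (0.057 to 0.091). A second C3 probe gave −1.25 (adjusted p = 0.045). TYROBP, an adaptor of myeloid and natural killer cell receptors, was lower by −0.85 (SE 0.120, adjusted p = 0.007) and by −0.75 at a second probe, though the value table gave 0.02. FCER1G, a related adaptor, was lower by −0.41 (adjusted p = 0.021), a call lost without lamb 2, 4 or 5 (0.059 to 0.070), with −0.25 at a second probe that did not pass. IL13RA1, an interleukin receptor chain, was 2.23-fold lower with little spread, from 2.24, 1.84, 1.70, 1.21 and 1.69 to 1.01, 0.58, 0.44, 0.20 and 0.66 (SE 0.075, adjusted p = 0.00249).

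Of 8 tested myeloid genes 2 were lower and 6 did not pass, and their summed level was 1.62 to 2.89 times the 75th percentile in LV and 1.21 to 2.12 times in septum. Of 6 genes of T, NK and B cells CD40 was higher (0.38, adjusted p = 0.04999, −0.063 after normexp correction and −0.00059 after normexp correction then cyclic loess) and GNLY, a granule protein, lower (−0.62), and of 5 MHC class II genes OVAR-DQA2 was lower (−0.37). The other probes of CD40 (0.03), GNLY (−0.16 and −0.33) and OVAR-DQA2 (−0.12) did not pass. CD40 and GNLY each lost the call without lamb 1, 3, 4 or 5, and OVAR-DQA2 without lamb 2. Of 12 interferon response genes and 5 neutrophil genes none passed. Beside the counts of these immune lists, 12.4% of all probes passed as lower and 6.47% as higher. CD93, a receptor on endothelium and myeloid cells, went the other way and was 1.91-fold higher in septum, from −3.34, −2.66, −3.69, −2.27 and −3.24 to −1.67, −2.20, −2.78, −1.60 and −2.29 (difference 0.93, SE 0.169, adjusted p = 0.015), in ranges that overlap. After normexp correction then cyclic loess CD93 stood at 0.26 (adjusted p = 0.087). ART4, a blood group antigen, was higher by 0.73 (adjusted p = 0.023), with 1 LV spot well above background, a call lost without lamb 1, 4 or 5 and a sign that turned after normexp correction (−0.08). ART4 thus entered the test mainly through its septum arrays, the group where it was higher. A second, ART4 probe gave 0.32 and did not pass (adjusted p = 0.403).

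Of the named genes past the threshold, EP4a and EM4C had the largest differences upward in septum, and both were dim on the LV arrays. EP4a, a name the file gives, stood at −6.12, −6.63, −6.32, −4.86 and −4.26 in LV and −5.84, −5.68, −4.70, −1.83 and −3.13 in septum. It was higher by 1.40 (SE 0.360, adjusted p = 0.041), with 2 LV and 3 septum spots well above background, lost its call without lamb 2, 3 or 5 (0.080 to 0.103), and stood at −0.07 after normexp correction. EM4C, likewise a name of the file, was higher by 1.11 (SE 0.270, adjusted p = 0.035), with 2 LV spots well above background, and lost its call without lamb 1, 2, 4 or 5 (0.051 to 0.093). Genes measured on all 10 arrays moved less. CALML4, a calmodulin-like protein, was higher by 0.50 (SE 0.077, adjusted p = 0.009), from −0.04 to 0.72 in LV to 0.43 to 1.13 in septum, and by 0.44 at its second probe, and SPA17, a sperm surface protein also present in ciliated cells, by 0.50 (SE 0.088, adjusted p = 0.014).

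Markers of other cell types are set against the 18.9% of all probes that passed. Of 13 endothelial and endocardial genes KDR and FABP4 were lower and 11, PECAM1 among them (−0.01, SE 0.065), did not pass, with a summed level of 16.1 to 18.4 times the 75th percentile in LV and 15.8 to 17.7 times in septum. Of 6 epicardial and mesothelial genes ITGB6 and C3 were lower and 4 did not pass, with a median of 0.18 against 0.01 for all probes. The 4 were CLDN3, CLDN1, ALDH1A1 and WT1, the defining transcription factor of epicardium (0.10, SE 0.072). The summed level of the 6 was 6.48 to 10.8 times in LV and 5.52 to 152 times in septum. The upper end comes from CLDN3, an epithelial tight-junction gene singled out after its values were seen, which stood at 7.16 in the septum of lamb 4 and between −2.94 and −2.05 on the 9 other arrays. No other probe of the 10333 stood more than 3 log2 units above all other arrays on any of the 10. Of 8 genes of adipose tissue FABP4 and LEP were lower, and their summed level was 14.1 to 24.5 times in LV and 11.9 to 18.8 times in septum. The part of these cell types in the collagen, integrin and complement results was not tested.

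The tested sarcomere genes did not pass, and of 8 tested genes of ion channels and gap junctions 1 did. This was AQP8, a water channel, lower in septum, with a call lost without any 1 of the lambs. MYH7 stood at 4.56, 3.38, 3.59, 3.02 and 3.78 in LV and 4.06, 3.48, 3.86, 3.08 and 3.94 in septum, lower in lamb 1 and higher in the other 4 (difference 0.02, SE 0.121), and its second probe gave 0.00. In the value table MYH7 was lower by −0.22 (adjusted p = 0.044). GJA1, the main gap junction protein of ventricular muscle, had 4 probes between −0.08 and −0.01, none past the threshold. None of the 5 tested sarcomere genes, of 40 listed, passed (median −0.20). The difference of CRYAB rests on lambs 3 and 5 alone because its other LV spots were flagged as outliers, and that of TPM1 on 3 lambs. PRKACA, the catalytic subunit of protein kinase A, was lower by −0.74 (SE 0.093, adjusted p = 0.006) without overlap, at −0.56 to −0.24 in LV and −1.49 to −0.89 in septum, and was the 1 gene of 5 tested for calcium handling that passed. Beside the counts of these lists, 18.9% of all probes passed.

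Of 10 heat shock and chaperone genes 2 were lower in septum and of 14 immediate early and acute inflammation genes 3, with none higher, where 12.4% of all probes passed as lower. HSPA5, the chaperone of the endoplasmic reticulum, stood at 2.45, 4.00, 4.11, 1.85 and 3.17 in LV and 1.46, 2.89, 3.16, 1.21 and 2.31 in septum. The lambs' differences were between −1.11 and −0.64, while the regions' ranges overlap (mean difference −0.91, SE 0.086, adjusted p = 0.004). DDIT3, a transcription factor of the unfolded protein response, was lower by −0.56 (adjusted p = 0.017; 0.056 without lamb 1). JUNB (−0.60), JUND (−0.78) and ZFP36 (−0.44), a destabilizer of cytokine transcripts, were the 3 immediate early and inflammation genes that were lower, and EGR1 (−0.40, adjusted p = 0.057) and FOS (0.41, adjusted p = 0.186) did not pass. PIM1, a kinase induced by cytokines, was 2.96-fold lower, from −3.65, −2.69, −1.27, −2.81 and −2.27 to −4.65, −3.61, −2.91, −4.87 and −4.48. Its difference ran from −2.39 to −0.34 across the alternative settings.

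Among cell cycle genes the inhibitor CDKN1B was lower by −0.55 (SE 0.119, adjusted p = 0.026) and the kinase CDK4 by −0.25 (SE 0.068, adjusted p = 0.046), while CDK5, a kinase related to these by sequence, was higher by 0.25 (SE 0.065, adjusted p = 0.044). CDK2, the kinase of entry into DNA synthesis, was lower by −0.38 (adjusted p = 0.019) here but stood at 0.10 in the value table. Of 16 tested cell cycle and replication genes 4 were lower, 1 was higher and 11 did not pass. Their median was 0.12 against 0.01 for all probes, of which 12.4% passed as lower and 6.47% as higher. Of 28 ribosomal and translation genes 4 were lower (EIF4G1, RPL14, RPS6 and PABPC1) and 24 did not pass (median −0.22), near the 12.4% of all probes that passed as lower. RPL14, at −0.34, stood at 0.04 after normexp correction followed by cyclic loess, and its second probe did not pass (−0.30, adjusted p = 0.082). RPL14 lost its call without lamb 1, 2, 3 or 5, and EIF4G1 without lamb 1, 2, 4 or 5. Of 11 proteasome and ubiquitin genes and 7 hypoxia response genes none passed.

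**Figure D4:**
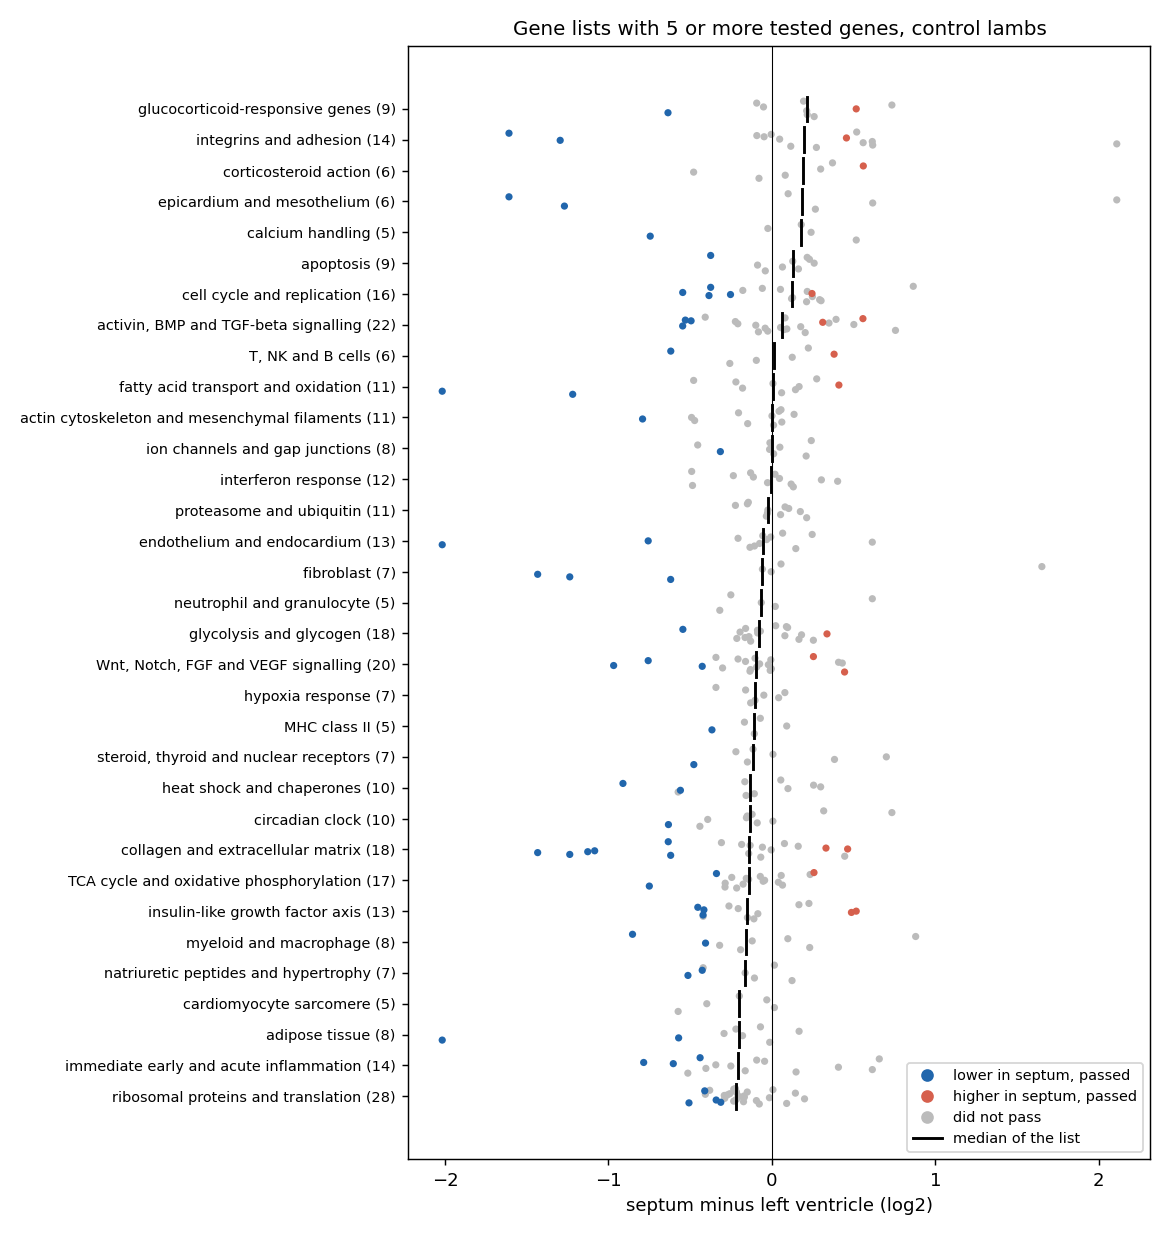
Septum minus LV difference (log2) of each tested gene in the lists with 5 or more tested genes, ordered by the list's median (black bar), with the number of tested genes in brackets. Blue genes passed and were lower in septum, red genes passed and were higher, and grey genes did not pass. The list medians lie between −0.22 and 0.21, and the genes furthest to the left belong to the collagen, fibroblast, integrin, epicardial, endothelial, adipose and fatty acid lists.

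The largest difference in each direction belonged to a probe without a gene name. A_70_P035166 stood at −2.26, −3.40, −2.71, −1.89 and −1.51 in LV and between −7.50 and −5.45 in septum, where it was not well above background on any array, so that it entered the test through its LV arrays. It was at least 7.72-fold lower in septum, a bound that sets each septum array at the lowest signal of its probes well above background, or at the probe's own where that is higher (adjusted p = 0.00249). A_70_P034846 was 3.72-fold higher, from −0.64, −0.84, −0.34, −0.88 and −0.25 in LV to 1.26, 1.48, 0.79, 1.80 and 1.18 in septum (adjusted p = 0.005). A_70_P060211 was higher by 2.74, a difference set mainly by lambs 2 and 3, whose LV values were −6.79 and −6.43, and its call was lost without lamb 1, 2, 3 or 5. A_70_P070076 was lower by −1.94 at a low level. The opening bases of each probe are shown because the sequence is the one identity these transcripts have here.

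A_70_P035166: ccttcgttggtgtgaaaatgtgtgtcatgt

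A_70_P034846: cttgaattgatcacttcattgccacggtat

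A_70_P060211: ctctgaagaacacatcttgtataactgaat

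A_70_P070076: gaccaaaatgaaaaggtacagacacaagcc

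Probes of the same transcript mostly moved together. Of 312 accessions with 2 tested probes, 94 had a probe past the threshold, and in 88 of these (93.6%) both probes had the same sign, against 83.3% of all 312. Both passed in 48. Such probes are read on the same arrays and can overlap in sequence, by 40 bases for HAND1 and 59 for IGFBP2. A second probe is therefore not an independent measurement, and the overlap of other pairs was not examined.

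Fitted alone, lambs 3 and 5, whose arrays share a slide, gave no probe past the threshold (1651 at an unadjusted p under 0.05), and lambs 1, 2 and 4 gave 359. Of those 359, chosen without lambs 3 and 5, 314 (87.5%) had the same sign in both lamb 3 and lamb 5, against 53.4% of the 10313 probes tested in lambs 1, 2 and 4. A slide term in the paired fit passed for none of 10313 probes (566 at an unadjusted p under 0.05), and across probes the differences of the same-slide and the other lambs correlated at r = 0.65. Lambs 4 and 5, whose LV and septum arrays were closest in brightness, gave none past the threshold when fitted alone (1679 at an unadjusted p under 0.05).

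The cortisol lambs are other hearts, but share the arrangement of the arrays. Lambs 1 to 3 of that group have LV and septum on the same pair of slides as control lambs 1, 2 and 4, lamb 4 has them on a different pair, and lamb 5 alone has both on 1 slide, and the septum array was the brighter in 4 of 5 (0.47 ± 0.80 on the log2 scale, SD). Slide, brightness and region cannot be told apart by these lambs. No probe passed in them (997 at an unadjusted p under 0.05, smallest adjusted p = 0.338), where the median residual SD was 0.260 against 0.155 in the control lambs. Of the 1951 control calls 1812 (92.9%) had the same sign in the cortisol lambs, against 69.7% of the probes not called, and of the 141 named genes 134 did. Lamb by lamb, cortisol lambs 1 to 4 had the sign of the control call in 75.8% to 85.5% of the called probes, against 58.7% to 65.3% of the others. Cortisol lamb 5 had it in 58.2% against 53.5%, and its differences correlated across probes at −0.07 to 0.15 with those of the control lambs, where cortisol lambs 1 to 4 gave 0.15 to 0.44. HAND1 (−1.33), ITGB6 (−1.24), COL3A1 (−1.28), COL4A1 (−0.96), COL4A2 (−1.10), NTN4 (−1.30), CPT1A (−1.10) and C3 (−2.18) were lower in septum in 5 of 5 cortisol lambs, and IGFBP2 (0.63) and CD93 (0.57) higher in 5 of 5. The unnamed probe A_70_P034846 was higher in 5 of 5 (2.42). ITGA4 stood at −0.29 there, ATP5PD at −0.21, ART4 at −0.15 and EM4C at −0.82, against −1.29, −0.75, 0.73 and 1.11 in the control lambs. The test of the difference between the treatments passed for no probe (372 at an unadjusted p under 0.05, smallest adjusted p = 0.997).

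**Figure D5:**
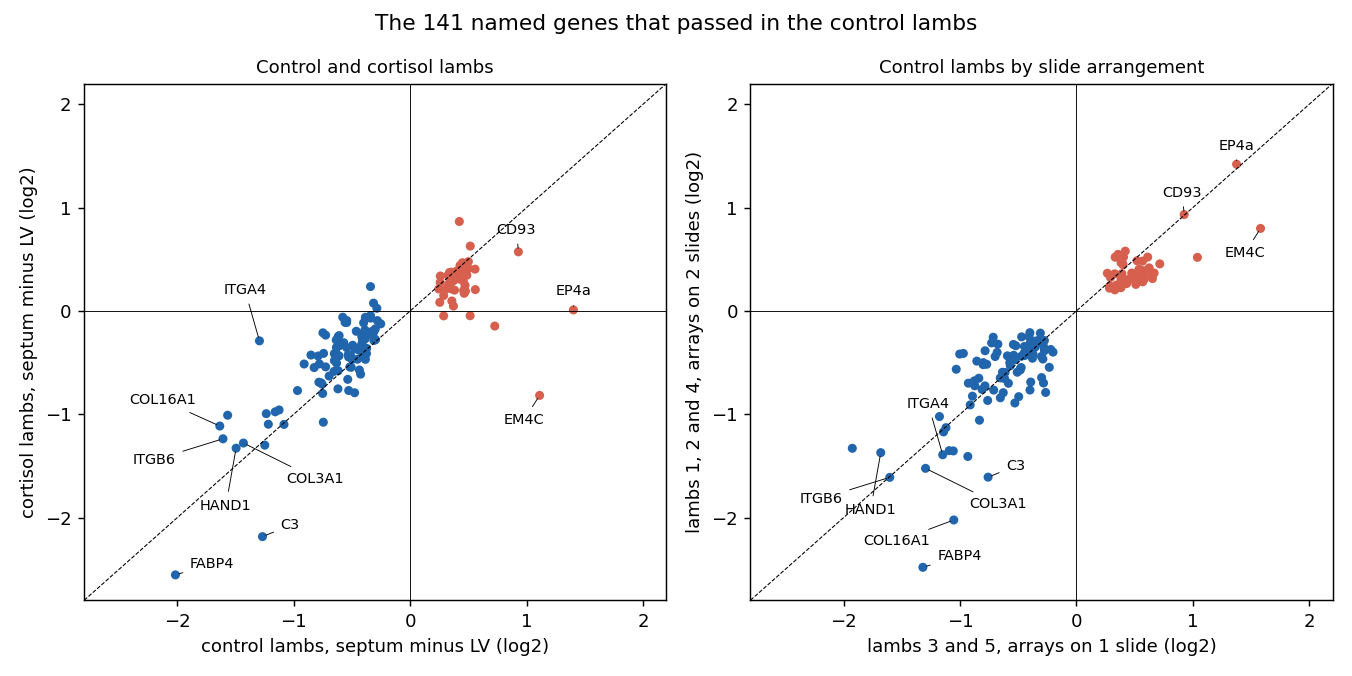
Septum minus LV difference (log2) of the 141 named genes that passed in the control lambs: control against cortisol lambs (left), and, within the control lambs, the mean of lambs 3 and 5 against that of lambs 1, 2 and 4 (right), with the line of equality dashed. Blue genes were lower and red genes higher in the control septum. On the left 134 genes keep their sign, with EM4C at 1.11 in control and −0.82 in cortisol lambs, and on the right all 141 have 1 sign in both means, from which the 5-lamb means that chose them are made.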

How the data were processed

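Trizol and columns were used for RNA, and 100 ng was labelled with Cy3, per the labels. Per the file headers and the submitters' processing notes, Agilent Feature Extraction 10.1.1.1 made the deposited processed signal intensity by background subtraction with spatial detrending and multiplicative detrending, without normalization between arrays. The deposited value table holds the authors' log2 values. Its steps beyond limma, which the notes name, are not given in the sources used here. Its column medians are 6.71 to 6.72 in control LV and 9.51 to 9.54 in control septum. LV columns have 0 empty cells and each septum column 5453 of 10373, so these medians cover different probes. Whether the regions were scaled apart cannot be read from them. The value table served only as an alternative after centring.

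Control and outlier-flagged spots were dropped, spots of a probe averaged and each array's 75th percentile subtracted. Where a spot was dropped the lamb left that probe's fit (112 probes). Probes were fitted with limma 3.58.1 in R 4.3.3 with the lamb as a block, and p-values were adjusted by Benjamini-Hochberg over all 10333 probes. The fit was tested on simulated data. The numbers in the titles pair the arrays: deviations from the group mean correlated at 0.63 to 0.80 between LV and septum of a number, and each array best with its own. Slides were read from their barcodes.

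Of the array's probes 1750 could be named, for 1075 genes, through RefSeq transcripts, gene identifiers or symbols (table of ARS-UI_Ramb_v3.0), the file's own descriptions, or older names; names known only from the file, such as EP4a, are kept. Each gene stands with its brightest tested probe (mean of the 10 arrays). Genes named are the 15 largest differences each way among genes past the threshold in 5 of 5 lambs, the 2 smallest p-values of each list with 3 or more tested genes, chosen cardiac, collagen, globin and corticosteroid receptor genes, and 2 unnamed probes each way. List members beyond these, and GLUD1 and ACLY, were chosen after their values were seen. The comparison, its genes and its lists were chosen with earlier results of these data known. Alternatives tried were the background correction, the scaling, the filter on dim probes, the block, slide, brightness, single lambs left out, all 20 arrays and the value table. The number of arrays limits the precision. Results of some genes are not reported here.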

Additional observations from a re-analysis of the deposited data

Results flagged for a closer look

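Among the 92 genes and probes followed, the 5 control lambs' differences held a lamb apart from the other 4 by Dixon's criterion in 7, where chance flags about 1 in 20. ART4 was higher in septum by 1.43 in lamb 3 and by 0.40 to 0.67 in the others. TGFBR1 was higher by 0.30 in lamb 1 and by 0.56 to 0.66 in the others. CTSF was higher by 0.89 in lamb 1 and by 0.39 to 0.46 in the others. CPT1A stood at −2.05 in lamb 4 and between −1.19 and −0.91 in the others. EDNRA stood at −0.90 in lamb 3 and between −0.46 and −0.32 in the others. The MHC class II gene OVAR-DQA2 stood at −0.24 in lamb 1 and between −0.42 and −0.38 in the others. MYH7 was lower in septum by −0.51 in lamb 1 and higher by 0.06 to 0.27 in the others. Lamb 1 is the lamb apart in 4 of the 7, and its LV array was the dimmest of the 10, with a 75th percentile of 103 units.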

How the results depend on the processing

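With 1951 probes past the threshold as reported, the count stayed within 1.5 times under median scaling, quantile normalization, cyclic loess, the stricter filters and the lamb as a random block. It was 1264 without a filter on dim probes (84.1% of them lower) and 756 with all 20 arrays in the paired fit. The count was 990 after normexp correction then cyclic loess, 0 after normexp correction alone and 850 to 1190 without single lambs. In the value table it was 3035 of 4919 tested probes (42.9% of the calls lower), against 1951 of 10333 as reported. It was 1 with slide as a further term, 207 with slide as a random block and the lamb dropped, and 0 with brightness as a covariate. The count was 0 in lambs 3 and 5 or 4 and 5 alone and 359 in lambs 1, 2 and 4 alone. Without the replicate block it was 174, with pairing by lamb dropped. Fits of fewer lambs use fewer arrays. With slide as a further term, lambs 3 and 5 alone set the regional difference (median of all probes 0.02 in both fits). The cause of the other changes was not tested. Median residual SD was 0.481 after normexp correction against 0.155 as reported. Without the filter the median of all probes was −0.11 against 0.01. Lower calls made up 56.0% under median scaling, 55.7% under cyclic loess and 65.7% as reported. Named genes past the threshold, 141 as reported, were 70, 59, 86, 0, 62 to 95 (single lambs), 221 (of 362 tested, against 701 as reported), 0, 16, 0, 0, 0 and 30 under these settings in the same order, and 16 with no replicate block. Signs turned for EP4a (−0.068), ART4 (−0.079), CD40 (−0.063) and VDAC1 (−0.017) after normexp correction, for CD40 (−0.00059) and RPL14 (0.036) after normexp correction then cyclic loess, and for FGF2 (0.00036), TYROBP (0.025), VDAC1 (−0.017), CDK2 (0.10) and MYH7 (−0.22) in the value table. Of 62 named genes that passed, 30 passed without each single lamb, HAND1, ITGB6, COL3A1, COL1A2, COL4A1, COL4A2, NTN4, CPT1A, IL13RA1 and HSPA5 among them. The cortisol lambs and the difference between treatments gave 0 under each alternative run. Dim probes limit the size of differences such as those of FABP4, EP4a, EM4C, ITGA4 and COL16A1.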

Other observations

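A set of 13 lysosomal genes was put together after the values were seen, so its counts were set by that choice and test nothing. Of 13 tested genes for lysosomal enzymes, their cofactors and a lysosomal transporter, 6 passed and were higher in septum, none passed as lower and the others did not pass. Of all named genes 6.42% passed as higher. The 6 were the cathepsins CTSB (0.33), CTSD (0.36), CTSF (0.52) and CTSL2 (0.37), the saposin precursor PSAP (0.37) and the sialic acid transporter SLC17A5 (0.34). The median of the 13 was 0.33, the highest CTSF and the lowest NPC2 (−0.0012), a sterol carrier. The median of all named genes was −0.04. In the cortisol lambs 11 of the 13 had a positive difference, and CTSF (−0.05) and HEXA (−0.0040) did not. Of all probes tested 74.1% had the same sign in control and cortisol lambs.

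The signalling genes PTCH1 (−0.70, adjusted p = 0.006), the Hedgehog receptor, and SNAI2 (−0.65, adjusted p = 0.030), a transcription factor of mesenchymal transition, were lower in septum, as were the chromatin protein HMGB2 (−0.78, adjusted p = 0.004) and the transport protein SLC25A17 (−0.77, adjusted p = 0.006), of peroxisomes. These were also picked after their values were seen.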
